A study of Homo sapiens with 3 samples.

Results

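In the prostate cancer line LNCaP, 8464 of 37060 H3K4me1 regions that were at least 2000 bp wide shared no base with any H3K27ac region. They were chosen by their width and their lack of overlap with listed H3K27ac alone, from the 197700 H3K4me1 regions of any width on chromosomes 1 to 22, and covered 22.8 Mb. LNCaP is an androgen-responsive line grown from a metastasis of a human prostate carcinoma, and the labels name no treatment or genetic change. Chromatin was immunoprecipitated for H3K27ac and for H3K4me1, with 1 library and 1 region list per mark, and an input library without antibody was not analysed here. The values therefore describe 2 region lists. There is no replicate spread, no p-value was computed, and the 95% intervals cover counting error over regions, which are treated as independent although neighbours are not. Read counts are not part of the lists and the depth is not known. A region missing from the H3K27ac list may still carry the mark below the authors' threshold.

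H3K4me1 is the monomethylation of histone H3 that the KMT2C and KMT2D methyltransferases place at enhancers. H3K27ac is placed by the acetyltransferases EP300 and CREBBP and marks enhancers and promoters in use. An enhancer with H3K4me1 and without H3K27ac is usually called primed: it is open to factors but not engaged, and may be switched on by a signal or in a later cell state. H3K4me1 also occurs over gene bodies and beside promoters, and together with the repressive mark H3K27me3 it defines poised elements. Neither gene positions nor H3K27me3 were analysed here, so the primed label was not checked against either, nor the line against its marker genes. The members are called H3K27ac-free below, meaning free of listed H3K27ac. They were set beside the 28596 wide regions with H3K27ac, weighted to the same widths in steps of 50 bp, and beside the 121404 H3K27ac-free regions under 2000 bp.

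The narrower an H3K4me1 region was, the more often it lacked H3K27ac, and the wide H3K27ac-free regions were the upper tail of a mostly narrow group. Over all widths 65.7% of H3K4me1 regions shared no base with H3K27ac, but at 2000 bp or more 22.8% did (exact 95% interval 22.4% to 23.3%). The share fell in every further width class. It was 35.8% at 2 to 2.5 kb (4461 of 12467 regions), 26.1% at 2.5 to 3 kb (1995 of 7656) and 17.5% at 3 to 4 kb (1449 of 8271). Few of the widest regions lacked H3K27ac: 483 of 5695 at 4 to 6 kb (8.48%) and 76 of 2315 at 6 to 10 kb (3.28%). Among the 656 regions from 10 kb upwards there were 0, where the interval reaches 0.561%. Since width and overlap chose the members, these shares are descriptions. A wider region also has more bases with which to meet H3K27ac.

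**Figure D1:**
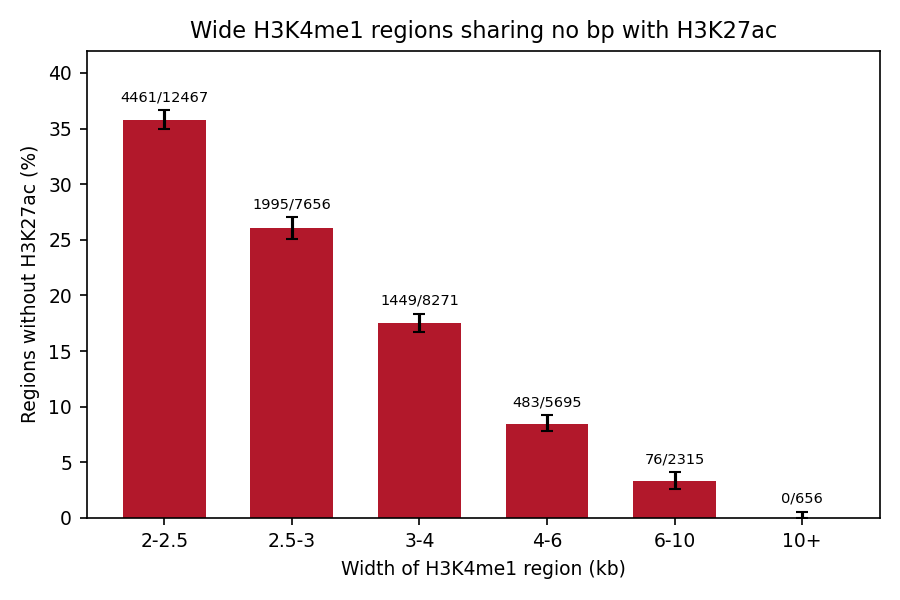
Share of wide H3K4me1 regions that share no base with H3K27ac (y axis, %) by width of the region (x axis, kb), with exact 95% intervals as error bars and the counts above each bar. The share falls from 35.8% at 2 to 2.5 kb to 0 of 656 regions at 10 kb or more.

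The median H3K27ac-free region measured 2450 bp across (quartiles 2150 and 2950 bp), against 3050 bp (2400 and 4200 bp) for those with H3K27ac. The widest reached 9850 bp, while regions with H3K27ac went up to 45250 bp. No step was seen at the width limit. Just inside it, at 2000 bp, 591 of 1486 regions (39.8%, 37.3% to 42.3%) lacked H3K27ac, and just outside, at 1950 bp, 686 of 1659 (41.4%, 39.0% to 43.8%) did. Many members lay near the width limit, with 52.7% of them under 2.5 kb, but the other limit, 1 shared base, was thinly populated. Only 25 members touched an H3K27ac region end to end, with a gap of 0 bp, and 106 (1.25%) had a gap of 200 bp or less. On the other side, 19 regions were classed with H3K27ac by 50 bp alone, and 85 by 50 to 200 bp. In the wide regions with H3K27ac the mark typically filled much of the region, with a median of 64.9% of the bases covered.

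The authors' score was less stringent in H3K27ac-free regions than in equally wide regions with H3K27ac. The score is a value per region deposited without a name, in which low values go with wide regions, and low was taken as the more stringent. Of the H3K27ac-free wide regions 6532 (77.2%, 76.3% to 78.1%) had a score of 0.003 or less, where 27.9% of all H3K4me1 regions did. Regions with H3K27ac reached 86.6% (86.2% to 87.1%) at equal widths, a difference of -9.47 percentage points (H3K27ac-free minus with H3K27ac, interval -10.5 to -8.46). Narrow H3K27ac-free regions had this score in 7.77% of cases. Low scores go with wide regions and the members were chosen by width. The contrast with the narrow regions and with the whole list therefore cannot be told apart from width. The lowest score of the list, 0.001, was given to 15 autosomal regions, of which 12 were wide with H3K27ac and 0 were wide and H3K27ac-free.

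In both sets the share with a score of 0.003 or less rose with width towards 100%. At 2 to 2.5 kb, 69.4% (68.1% to 70.8%) of H3K27ac-free regions scored 0.003 or less, against 80.8% (79.9% to 81.7%) of those with H3K27ac. At 3 to 4 kb the shares were 90.8% (89.2% to 92.3%) and 95.5% (95.04% to 96.04%). At 4 to 6 kb they were 96.3% (94.2% to 97.8%) and 99.2% (99.0% to 99.5%), and at 6 to 10 kb all 76 H3K27ac-free regions and all 2239 regions with H3K27ac had this score. The intervals of the sets did not overlap in any class below 6 kb. Near 100% a difference in percentage points must shrink. The shares above the limit were 30.6% and 19.2% at 2 to 2.5 kb, and 3.73% and 0.752% at 4 to 6 kb. At the other extreme, a score above 0.005 was found in 471 H3K27ac-free wide regions (5.56%) and in 2.35% of equally wide regions with H3K27ac.

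**Figure D2:**
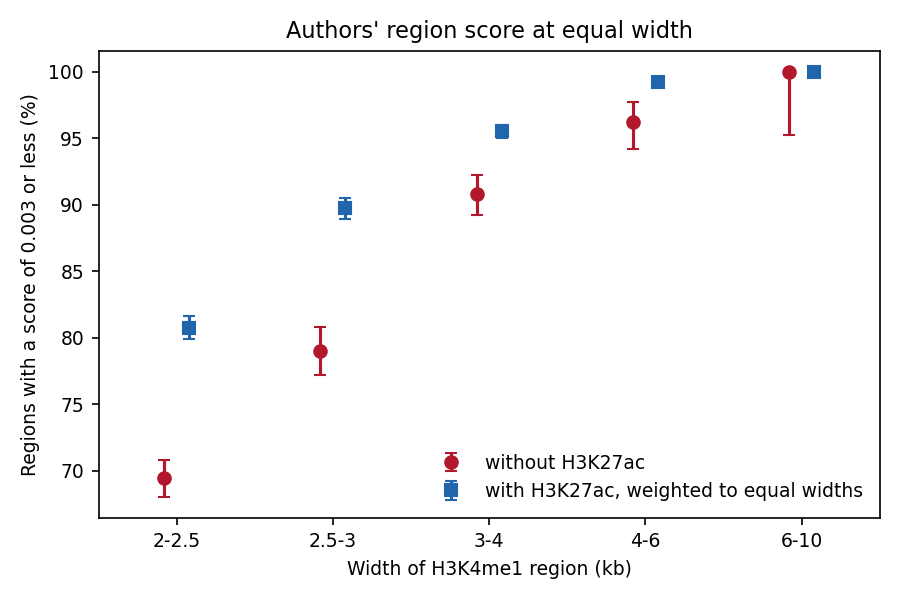
Share of regions with the authors' score at 0.003 or less (y axis, %, starting above 0) by width of the H3K4me1 region (x axis, kb), for regions without H3K27ac (circles) and with H3K27ac weighted to the same widths (squares). Error bars are 95% intervals over regions, and the circles lie below the squares in each class under 6 kb and meet them at 6 to 10 kb.

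Most H3K27ac-free wide regions lay within 50 kb of H3K27ac, but farther from it than equally wide regions with H3K27ac lay from their next H3K27ac region. The gap to the nearest H3K27ac region had a median of 10.2 kb (quartiles 3.6 and 26.3 kb). For wide regions with H3K27ac, the gap to the nearest H3K27ac region sharing no base with them had a median of 6.60 kb (2.70 and 15.4 kb) at equal widths. Within 10 kb, 4194 H3K27ac-free regions (49.6%, 48.5% to 50.6%) had an H3K27ac region, against 62.9% (62.3% to 63.6%) of those with H3K27ac. At this distance the wide and the narrow H3K27ac-free regions were alike in value: the share within 10 kb was 49.6% over H3K27ac-free regions of all widths, and the narrow ones had a median gap of 10.2 kb too. At shorter distances the wide ones had lower shares, with 6.24% (5.73% to 6.77%) against 9.13% (8.97% to 9.29%) within 1 kb and 14.5% (13.7% to 15.3%) against 17.0% (16.8% to 17.2%) within 2 kb. The rule fixes that members share no base with H3K27ac, so these gaps are descriptions.

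In 3145 members (37.2%) an H3K27ac region lay within 10 kb on 1 side only, in 1049 (12.4%) on both sides and in 4270 (50.4%) on neither. The split by side is not given for the other sets, so it cannot be called particular to the members. Remote members were a minority, with 981 (11.6%) having no H3K27ac within 50 kb and 309 (3.65%) none within 100 kb. The narrow H3K27ac-free regions were similar: 87.5% of them had H3K27ac within 50 kb, against 88.4% of members. Within 100 kb the shares were 95.1% and 96.3%. Equally wide regions with H3K27ac had a further H3K27ac region within 50 kb in 95.1% of cases and within 100 kb in 98.9%. The H3K27ac regions nearest to members were ordinary in width. The 6671 distinct ones had a median width of 1600 bp, the same as that of all 69160 autosomal H3K27ac regions, and 13.7% of them had that list's lowest score of 0.001, against 14.5% of all. They overlapped an H3K4me1 region in 92.1% of cases (91.4% to 92.7%), where 83.6% of all H3K27ac regions did.

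Score and gap went together within the members. Among the 499 members less than 1 kb from H3K27ac, 63.7% (59.3% to 68.0%) scored 0.003 or less. The share was 72.6% (70.2% to 74.8%) at 2 to 5 kb, 78.7% (76.5% to 80.7%) at 5 to 10 kb and 84.1% (81.1% to 86.8%) at 50 to 100 kb. It was 80.97% (76.1% to 85.2%) in the 310 members at 100 kb or more. The members nearest to H3K27ac therefore had the less stringent scores. Width moved with this only in the nearest class, where 17.2% (14.02% to 20.8%) were at least 3000 bp wide, against 25.9% (23.6% to 28.2%) at 2 to 5 kb and 24.5% (21.3% to 27.9%) at 50 to 100 kb.

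**Figure D3:**
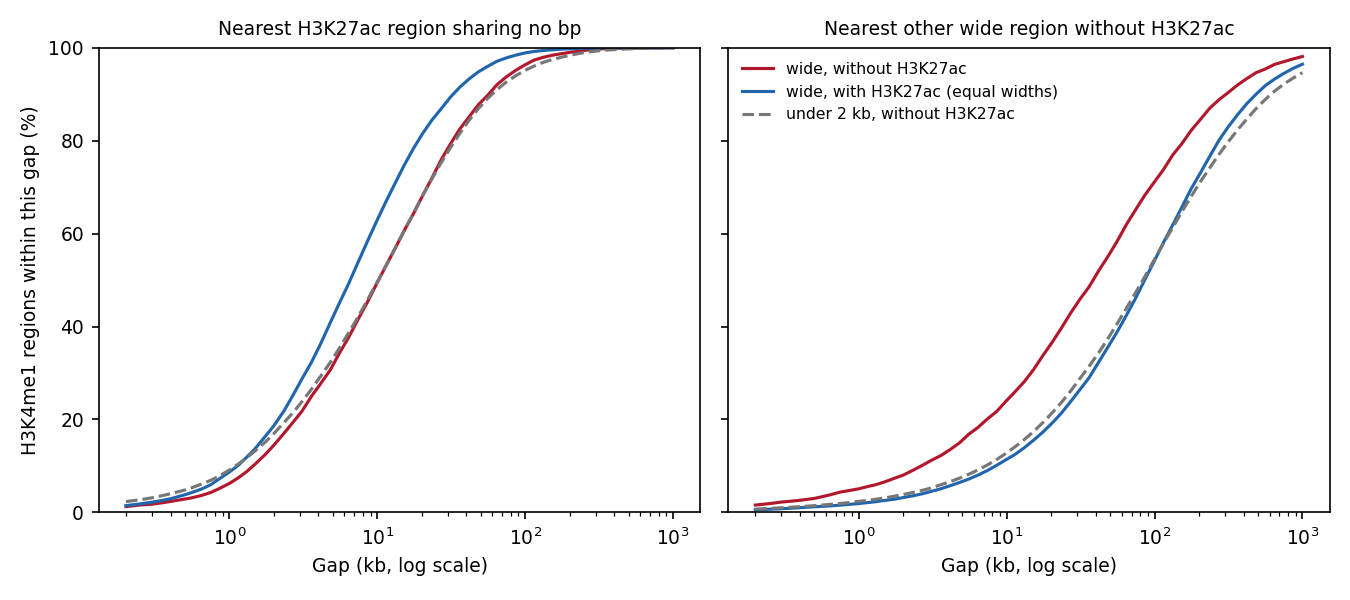
Cumulative share of H3K4me1 regions (y axis, %) with an H3K27ac region sharing no base (left) or another wide H3K27ac-free region (right) within a given gap (x axis, kb, log scale). At 10 kb on the left, wide H3K27ac-free regions stand at 49.6% with the narrow ones on nearly the same curve, and wide regions with H3K27ac at 62.9%; on the right the wide H3K27ac-free regions lie above both other sets.

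The flanks showed how far the surroundings of these sets differed. From 3 to 5 kb beyond the edge of an H3K27ac-free wide region, H3K27ac covered 7.85% of the sequence, and from 75 to 100 kb 7.82%, so coverage was level from 3 kb outwards and above the autosomal mean of 5.01%. Around equally wide regions with H3K27ac it fell from 13.7% at 3 to 5 kb to 9.38% at 75 to 100 kb. Narrow H3K27ac-free regions were close to the members, with 7.87% at 3 to 5 kb and 7.29% at 75 to 100 kb. Nearer to the H3K27ac-free wide regions H3K27ac coverage was lower, at 4.67% from 1 to 2 kb, 2.11% from 500 to 1000 bp and 0.721% in the first 500 bp. Around the narrow ones it was 5.75% from 1 to 2 kb. The rule bears on these slopes: it removes regions that H3K27ac reaches, and the comparison set requires such an overlap, so they are descriptions of the sets.

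From 3 kb outwards, H3K4me1 itself was somewhat denser around the H3K27ac-free wide regions than around those with H3K27ac. At 3 to 5 kb it covered 25.9% of the flank, against 25.1% around equally wide regions with H3K27ac and 19.0% around narrow H3K27ac-free regions. At 75 to 100 kb the values were 20.6%, 18.9% and 16.8%, all above the autosomal mean of 10.3%. Closer in than 3 kb, the order of these 2 wide sets was the opposite. At 1 to 2 kb the values were 23.8% around H3K27ac-free wide regions and 28.7% around those with H3K27ac. At 2 to 3 kb they were 25.4% and 26.7%.

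**Figure D4:**
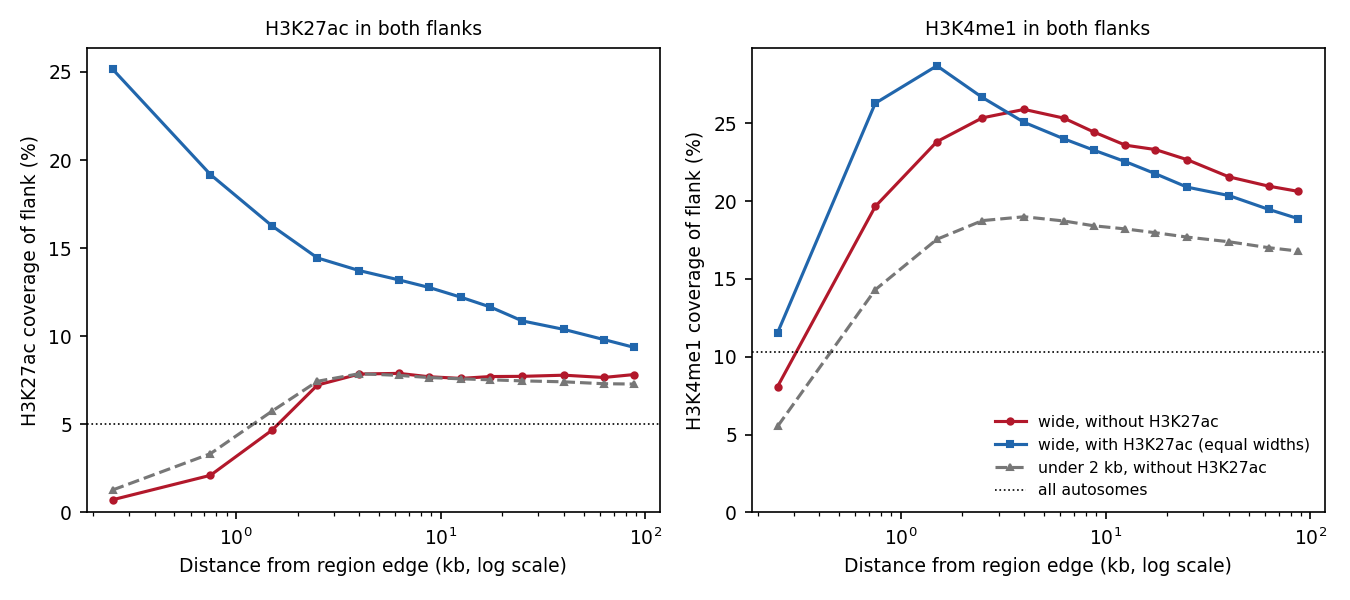
Mean share of the flanks covered by H3K27ac (left) and by H3K4me1 (right) regions (y axes, %) against distance from the edge of the region (x axis, kb, log scale), both sides pooled, for the 3 sets of H3K4me1 regions, with the autosomal mean as a dotted line. H3K27ac around wide H3K27ac-free regions is level near 7.8% beyond 3 kb, whereas around wide regions with H3K27ac it declines with distance. Narrow H3K27ac-free regions lie close to the wide ones beyond 3 kb, at 7.87% from 3 to 5 kb and 7.29% from 75 to 100 kb.

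H3K27ac-free wide regions had a close H3K4me1 neighbour less often than equally wide regions with H3K27ac, and more often than narrow H3K27ac-free ones. Another H3K4me1 region lay within 1 kb of 3703 members (43.8%, 42.7% to 44.8%), against 53.5% (52.8% to 54.2%) of equally wide regions with H3K27ac and 33.2% of narrow H3K27ac-free ones. The nearest other H3K4me1 region, at any distance, carried H3K27ac in 23.2% of members (22.3% to 24.1%), in 48.1% of equally wide regions with H3K27ac (47.4% to 48.8%) and in 28.2% of narrow H3K27ac-free regions (27.9% to 28.4%), while 34.3% of all H3K4me1 regions carried it. The value of the members was the lowest of these 4. When H3K4me1 regions at most 1 kb apart were joined, 1307 members (15.4%) came to lie in a domain that shared bases with H3K27ac. A further 2396 (28.3%) were joined to other regions in a domain still free of H3K27ac, of median width 4625 bp and at most 18500 bp, and 4761 (56.3%) had no H3K4me1 region within 1 kb.

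Members lay nearer to one another than other H3K4me1 regions lay to them. Another member lay within 12500 bp of 2323 of them (27.4%, 26.5% to 28.4%), whereas 14.1% of all H3K4me1 regions had a member so near. The share was 13.4% (12.9% to 13.9%) for equally wide regions with H3K27ac and 15.1% (14.9% to 15.3%) for narrow H3K27ac-free regions. Closeness to the own kind was not particular to the members: of the wide regions with H3K27ac, which are more numerous, 16534 of 28596 (57.8%) had another of their own set within 12500 bp. The median gap to the nearest member was 38.2 kb from another member and 85.8 kb from an equally wide region with H3K27ac. Beyond 5 Mb from the autosome ends the shares were 24.97% (23.9% to 26.0%) for members and 12.3% (11.8% to 12.8%) for equally wide regions with H3K27ac, so the contrast was also present there.

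Joining members at most 12500 bp apart gave 6141 single members, 788 pairs and 219 clusters of 3 or more, the latter holding 747 members. Members themselves hold no H3K27ac by the rule and the stretches between them are short, so most cluster spans can be foreseen to lack it. No H3K27ac region lay within the span of 862 of the 1007 clusters of 2 or more members (85.6%), nor within 157 of the 219 clusters of 3 or more (71.7%). The longest span was 60850 bp. Coordinates below are those of the build hg19, counted from 1.

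The largest cluster, with 8 members, lay on chromosome 8 from 144552301 to 144611200. Its members covered 25.9 kb of a span of 58.9 kb, with 16 H3K4me1 regions and 0 H3K27ac regions in the span, and the nearest H3K27ac region lay 11.5 kb outside. The widest member there measured 5800 bp, and 6 of the 8 scored 0.003. On chromosome 17 from 21197701 to 21255300, 6 members covered 24.3 kb, again with 0 H3K27ac regions among 18 H3K4me1 regions. The remaining 3 clusters of 6 members contained some H3K27ac. The cluster on chromosome 4 from 997051 to 1053700 held 2 H3K27ac regions of 6.80 kb in total, between members covering 25.9 kb. Those on chromosome 17 from 76337151 to 76385300 and on chromosome 1 from 205460001 to 205506600 held 1 H3K27ac region each, of 1.45 and 1.65 kb. In these 3 clusters H3K27ac lay between members, the only place that the rule allows inside a span.

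Of the 5 widest members 3 belonged to clusters, and all 5 scored 0.003. The widest of all, of 9850 bp, lay on chromosome 19 from 1465151 to 1475000, with an H3K27ac region of 2150 bp at a gap of 3.30 kb and 8 H3K27ac regions within 50 kb. The next, of 9150 bp on chromosome 17 from 79063401 to 79072550, lay 3.50 kb from an H3K27ac region of 5350 bp, which had that list's lowest score of 0.001. The third, of 9000 bp on chromosome 1 from 3622901 to 3631900, was farther from H3K27ac, with gaps of 36.6 and 57.3 kb on its sides, and had 5 other members among the 31 other H3K4me1 regions within 50 kb. The fourth (8950 bp, chromosome 4 from 1019801 to 1028750) and the fifth (8850 bp, chromosome 17 from 21218901 to 21227750) belonged to the clusters of those chromosomes given above, with H3K27ac at 2.85 and 25.1 kb. Wide members therefore occurred both close to H3K27ac and well away from it.

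Members far from H3K27ac were as wide as the rest: the 310 at 100 kb or more had a median of 2450 bp, and 24.5% (19.8% to 29.7%) were at least 3000 bp wide. Among members with a score of 0.003, the lowest that any member had, the largest gap was 1190 kb, on chromosome 13 from 87490301 to 87492600. This region of 2300 bp had no other H3K4me1 region within 454 kb either. A pair followed on chromosome 3, from 147109951 to 147113450 (3500 bp) and from 147126901 to 147129750 (2850 bp), with 766 kb to the nearest H3K27ac region. These neighbours lay 13.5 kb apart and had further H3K4me1 regions at 0.40 and 1.30 kb. The next 2 were a region of 2100 bp on chromosome 4 from 180978951 to 180981050, at 642 kb and with no H3K4me1 region within 421 kb, and one of 2200 bp on chromosome 3 from 164057251 to 164059450, at 640 kb.

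The share of wide H3K4me1 regions that lacked H3K27ac ranged from 19.0% to 26.0% over the autosomes, where the share of all was 22.8%. The share was highest on chromosome 10 (530 of 2042 regions, 26.0%, 24.1% to 27.9%) and chromosome 20 (294 of 1150, 25.6%, 23.1% to 28.2%). It was lowest on chromosome 6 (302 of 1590, 19.0%, 17.1% to 21.01%) and chromosome 16 (296 of 1454, 20.4%, 18.3% to 22.5%). Chromosomes also differ in how wide their regions are. Relative to the number expected from the widths of its regions and the autosome-wide share at each width, chromosome 6 had 0.757 times and chromosome 17 had 1.18 times as many members, the extremes of the 22 autosomes. LNCaP has an abnormal karyotype, and the part of copy number in these values was not tested.

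Members were more frequent towards the ends of the autosomes than either comparison set. Ends were taken as the outermost region of either list, and the long-arm end alone was used for chromosomes 13, 14, 15, 21 and 22. Within 5 Mb of an end lay 1619 members (19.1%, 18.3% to 19.98%), against 11.3% of all H3K4me1 regions. The share was 10.3% (9.85% to 10.7%) for equally wide regions with H3K27ac and 12.3% (12.1% to 12.49%) for narrow H3K27ac-free regions, so members exceeded the former by 8.85 percentage points (7.91 to 9.79). Read the other way, 31.0% of wide regions (29.2% to 32.9%) within 2 Mb of an end and 31.5% (29.8% to 33.3%) at 2 to 5 Mb lacked H3K27ac. The share declined inwards to 25.9% (24.4% to 27.4%) at 5 to 10 Mb and 19.8% (19.0% to 20.6%) at 40 to 80 Mb. Widths alone would have given 20.3%, 21.4%, 21.7% and 23.6% in these 4 zones, the opposite trend.

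**Figure D5:**
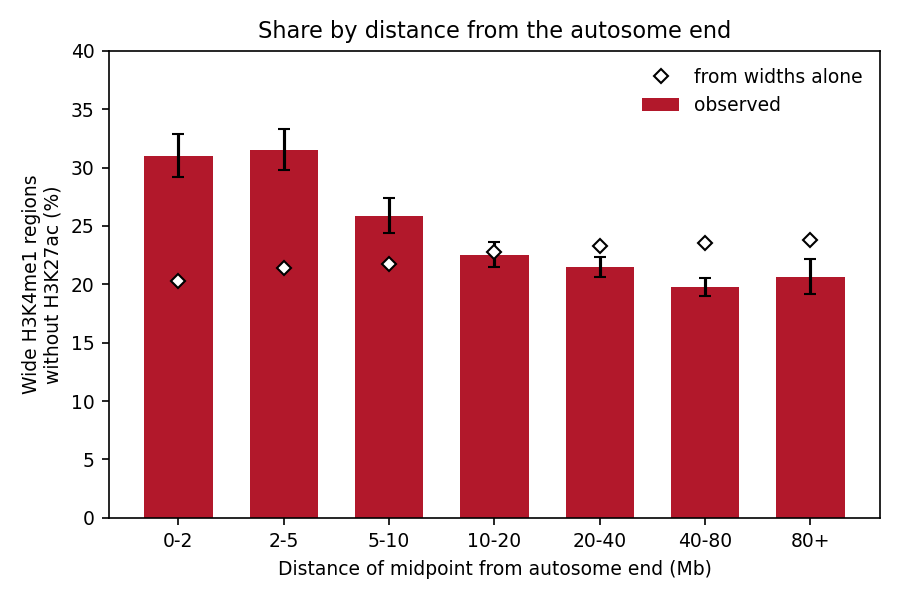
Share of wide H3K4me1 regions without H3K27ac (y axis, %) by distance of the midpoint from the autosome end (x axis, Mb), with exact 95% intervals. Diamonds give the share expected from the widths of the regions in each zone; the bars stand above the diamonds within 10 Mb of an end and below them beyond 20 Mb.

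The excess at the ends was found on most autosomes. The share of wide regions lacking H3K27ac was higher within 5 Mb of an end than farther in on 21 of 22 autosomes, with differences from -1.25 percentage points on chromosome 3 to 22.7 on chromosome 12. On chromosome 12, 71 of 172 wide regions near an end lacked H3K27ac (41.3%), against 287 of 1544 farther in (18.6%). Wide regions were also split by the number of H3K4me1 regions in their window of 1 Mb. Near the ends, 2495 lay in windows with 150 or more, 1896 in windows with 100 to 150 and 657 in windows with 50 to 100. Farther in, the counts were 5682, 13733 and 10249. The share lacking H3K27ac was higher near the ends in each of these classes. Windows with fewer than 50 H3K4me1 regions were not split in this way. At 100 to 150 H3K4me1 regions per window, the share lacking H3K27ac was 30.8% (28.7% to 32.9%) within 5 Mb of an end and 20.5% (19.8% to 21.2%) elsewhere. With 150 or more regions the shares were 32.9% (31.1% to 34.8%) and 23.1% (21.98% to 24.2%), and with 50 to 100 they were 27.4% (24.0% to 31.0%) and 20.6% (19.9% to 21.4%). The part of H3K4me1 density, base composition or mappability near the ends was not tested.

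The highest-ranked windows of 1 Mb by number of members lay near autosome ends, but most windows with 10 or more members did not. The first 3 were on chromosome 16 from 1000001 to 2000000 with 30 members among 72 wide regions (41.7%, 30.2% to 53.9%), chromosome 1 from 2000001 to 3000000 with 28 of 52 (53.8%, 39.5% to 67.8%) and chromosome 1 from 3000001 to 4000000 with 27 of 45 (60%, 44.3% to 74.3%). These windows were not devoid of H3K27ac: they held 44, 34 and 23 H3K27ac regions beside 205, 206 and 203 H3K4me1 regions. Members occurred in 1931 of the 2726 windows with H3K4me1, with a median of 2 per window, and 195 windows with 10 or more held 32.2% of them. Of those 195 windows, 72 lay within 5 Mb of an end, and the share of all windows lying there is not given here. Windows without any H3K27ac region held 4 members. Neither this count nor the 32.2% has a matching share over all H3K4me1 regions here.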

How the data were processed

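Deposited region lists for H3K27ac and H3K4me1 were used, 1 library each. Per the submitters' processing notes, Bowtie 0.12.8 and the build hg19 were used. How regions were called, at what threshold and with or without the input is not given in the sources used here. Each region carries a score deposited by the authors without a name, used to rank regions within its list. Starts were read as 0-based and printed counted from 1. Only chromosomes 1 to 22 were used. Clusters join members separated by up to 12.5 kb. A region carried H3K27ac when it shared at least 1 bp with an H3K27ac region. Wide regions with H3K27ac were weighted to the members' widths in steps of 50 bp (direct standardisation; every member width was present). Intervals are exact Clopper-Pearson, or normal with the weights for weighted shares. Overlap, gap and weighting code was tested on simulated lists. The members, the comparisons and the rule for named regions (5 widest, 5 farthest, 5 largest clusters, 3 windows, chromosomes of extreme share) were chosen with earlier results of these data known. The rule asked for the farthest members at the list's lowest score; none had it, so the lowest score of a member was used. The comparison by autosome end was added after the values were seen. Gene annotation and sequence of hg19 were not used here, so the planned gene lists, start sites and base composition were not analysed. The software was scipy 1.17.1, pandas 2.3.3, numpy 2.4.6 and, for figures, matplotlib 3.10.9, under Python 3.11.15.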

Additional observations from a re-analysis of the deposited data

Results flagged for a closer look

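Chromosome X was outside the chromosomes compared. It held 305 H3K4me1 regions of 2000 bp or more, of which 73 (23.9%, exact 95% interval 19.3% to 29.1%) shared no base with H3K27ac; the interval contains the autosomal share of 22.8%.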

How the results depend on the processing

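Of 29 alternative values 25 left the interval of the main value, 4 stayed within it and 0 changed sign. Shares and ratios cannot change sign, so the last count bears only on the differences. The share of wide regions without H3K27ac, 22.8%, was 32.4% with a minimum of 1500 bp, 11.9% with 3000 bp, 19.9% at H3K4me1 scores of 0.003 or less, 37.5% with H3K27ac scores at or below the list median, 45.1% when only regions covered by H3K27ac over 50% or more were set aside, 30.3% after merging within 1 kb, and 21.5% when regions under 1 kb from H3K27ac were counted with it (added after seeing the data). The number of members thus rests on the width limit and on the H3K27ac list. The share within 10 kb of H3K27ac, 49.6%, was 46.9% at H3K4me1 scores of 0.003 or less, 39.5% with H3K27ac at or below its median score and 44.2% after merging. The score difference, -9.47 percentage points, was -14.5 without weighting, -4.12 from 3000 bp and -10.7 against regions at least 50% covered. At a limit of 0.001, a score that no member had, it was -0.010 with an interval of -0.024 to 0.0039. The share with another member within 12500 bp, 27.4%, was 15.5% at 5 kb, 40.9% at 25 kb, 23.7% at scores of 0.003 or less, and 24.97% beyond 5 Mb of an end (added). The excess at autosome ends, 8.85 points, was 6.69 without weighting, 11.0 from 3000 bp, 4.38 at 2 Mb, 11.1 at 10 Mb and 6.15 with H3K27ac at or below its median score, all added. Per Mb of span, chromosome 10 stood at 1.29 times and chromosome 6 at 0.583 times the autosomal level, against 1.14 and 0.832 for the shares. Alternatives that need gene positions were left unrun. No paired analysis was possible because there is a single library for either mark. Depth is unknown, which limits what absence from a list means.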
